A study of Mus musculus with 2 samples.

Results

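Plasma cells were examined in spleens of chronically anaemic C57BL/6 mice, from counts of RNA in single cells. A cell was taken as a plasma cell by 7 transcripts. It had to hold at least 10 unique molecular identifiers (UMIs, single captured transcripts) of Jchain, at least 5 of Xbp1 and Mzb1 together and at least 1 of Tnfrsf17, Prdm1, Derl3 and Sdc1 together. It also had to hold at least 1000 UMIs, at least 300 genes, at most 10% mitochondrial UMIs and under 20% haemoglobin UMIs. This rule took 71 of 16152 cells, of which 11 came from 6445 PHZ cells and 60 from 9707 bleeding cells. PHZ mice were injected with PHZ and bled mice lost blood at intervals of 3 days over 1 month. Live spleen cells of each treatment formed 1 droplet library, the number of mice in a library was not stated, and untreated mice were not analysed here. With 1 library a treatment there is no replicate and no test. Intervals are exact 95% intervals that cover counting error only, and UMI counts within a library share its handling and its mice.

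Plasma cells are the antibody-secreting end stage of the B cell lineage. The repressor Prdm1 closes the B cell programme in them, while Xbp1 enlarges the endoplasmic reticulum (ER), in which immunoglobulin chains are folded, glycosylated and assembled. The small Jchain protein links IgM and IgA into polymers. The spleen makes short-lived plasma cells from activated B cells and keeps some long-lived ones.

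Transcripts of the rule chose the cells, so their values only describe the choice. Jchain counts ranged over 10 to 2396 UMIs in the 11 PHZ cells, with a median of 660, and over 10 to 3921 in the 60 bleeding cells, with a median of 892. Of all Jchain UMIs in cells, the members together held 98.7% in PHZ and 97.1% in bleeding. In B cell-like cells (at least 1 UMI of Cd79a and 1 of a B cell surface pair that includes Ms4a1, no CD3 UMI and under 10 Jchain UMIs; 1508 PHZ and 3358 bleeding cells) the highest Jchain count was 7 in PHZ and 9 in bleeding. Just inside the limit, 2 PHZ and 4 bleeding cells held under 20 Jchain UMIs, and immunoglobulin transcripts made up 0.401% to 0.957% of the UMIs of those bleeding cells. Just outside it, 4 bleeding cells with 5 to 9 Jchain UMIs met every other limit, with immunoglobulin shares of 0.133% to 51.2%. A further 11 bleeding cells with 10 or more Jchain UMIs missed another limit. Of 16 barcodes that passed in both libraries, 0 belonged to members.

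The name plasma cell fitted 59 of the 71 members. The other 12 members, 2 in PHZ and 10 in bleeding, carried 15 or more UMIs of Ms4a1, the B cell surface protein CD20, a limit set after the values were seen. Immunoglobulin genes made up 0.865% and 1.42% of UMIs in the Ms4a1-high PHZ members and 0.401% to 5.36% in the bleeding ones, with a median of 0.915%. In the remaining members this share was 33.8% to 69.8% (median 47.1%, n = 9) in PHZ and 4.86% to 65.6% (median 50.3%, n = 50) in bleeding. The ranges of the Ms4a1-high and the other members did not overlap in PHZ and overlapped at their edges in bleeding. Among transcripts of the rule, which only describe the choice, Tnfrsf17, the survival receptor BCMA, had 0 UMIs in Ms4a1-high members of both libraries. Derl3 was found in 2 of 2 PHZ and 8 of 10 bleeding Ms4a1-high members. Prdm1 was found in 0 PHZ and 4 bleeding ones, and Sdc1 in 0 and 2. The 11 germinal centre B cell genes listed were all detected in them and summed to 2634 CPM in PHZ and 1925 CPM in bleeding, against 284 and 252 CPM in the remaining members and 141 and 158 CPM in B cell-like cells of those libraries. CPM are counts per 1000000 UMIs outside haemoglobin and immunoglobulin genes. The proliferation marker Mki67 reached 10 UMIs in 2 of 2 PHZ and 7 of 10 bleeding Ms4a1-high members. A doublet caller marked 1 of these 2 PHZ and 2 of these 10 bleeding cells, and also 2 of the other 9 PHZ members, both IgM, and 0 of the other 50 bleeding members. Results that rest on them are given with and without them.

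**Figure D1:**
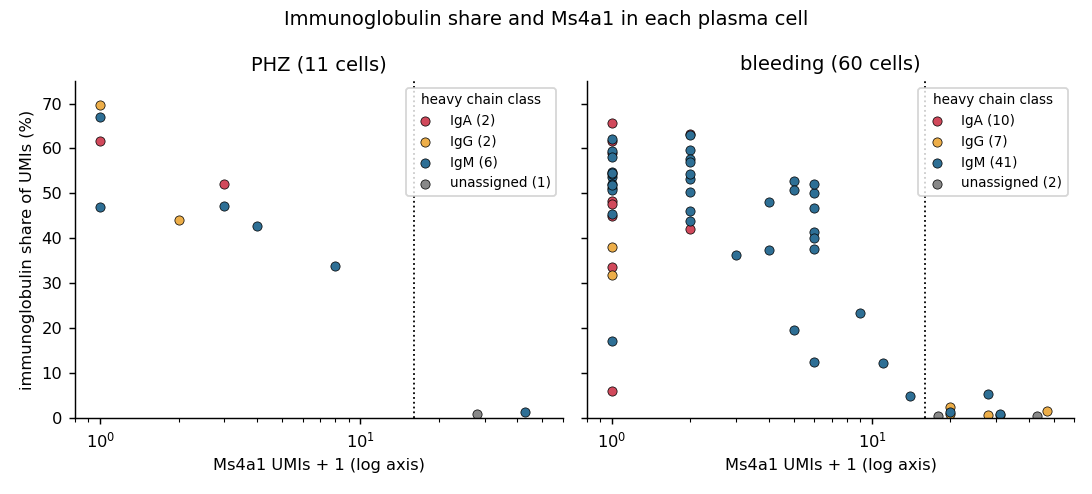
Immunoglobulin share of UMIs (y axis, percent) against Ms4a1 UMIs plus 1 (x axis, log scale) for each of the 11 PHZ (left) and 60 bleeding (right) plasma cells, coloured by heavy chain class. The dotted line marks 15 Ms4a1 UMIs; all 12 cells to its right lie at or below 5.36%.

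Plasma cells were a smaller share of the PHZ spleen library than of the bleeding library. They made up 0.171% (0.0852 to 0.305) of PHZ cells and 0.618% (0.472 to 0.795) of bleeding cells, a ratio of 0.276 (0.131 to 0.530). Only 3248 of the PHZ cells and 6778 of the bleeding cells held under 20% haemoglobin UMIs, so the share was also taken of plasma and B cell-like cells alone. It was then 0.724% (0.362 to 1.29) in PHZ and 1.76% (1.34 to 2.25) in bleeding, a ratio of 0.413 (0.196 to 0.792). Without the Ms4a1-high members the 2 ratios were 0.271 (0.117 to 0.557) and 0.404 (0.175 to 0.831). Mice, libraries and treatments cannot be told apart here.

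Antibody transcripts filled a large part of the RNA of the plasma cells, and the shares per cell overlapped between the libraries. Summed over members, immunoglobulin genes took 42.0% of UMIs outside haemoglobin in PHZ and 34.02% in bleeding, and 52.0% and 42.5% without the Ms4a1-high members. B cell-like cells gave 1.27% in PHZ and 1.20% in bleeding. T cell-like cells, which make no antibody, held 0.0246% in PHZ and 0.0333% in bleeding. The few plasma cells held 45.6% of all immunoglobulin UMIs of PHZ cells and 63.7% of those of bleeding cells. For Igha, the IgA heavy chain, they held 97.4% in PHZ and 91.1% in bleeding. For Ighm, the IgM chain that naive B cells also make, they held 31.9% in PHZ and 60.5% in bleeding.

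IgM was the most frequent class in both libraries. A cell was given a class where 1 constant region had at least 10 UMIs and over 50% of heavy chain UMIs. Of the PHZ members, 6 of 11 were IgM, 2 IgA and 2 IgG2c, and 1 had no class. Of the bleeding members, 41 of 60 (68.3%, 55.0 to 79.7) were IgM, 10 (16.7%, 8.29 to 28.5) IgA and 7 IgG, and 2 had no class. Without the Ms4a1-high members there were 5 IgM, 2 IgA and 2 IgG cells of 9 in PHZ, and 38 IgM, 10 IgA and 2 IgG cells of 50 in bleeding. Thus 5 of the 7 bleeding IgG cells were Ms4a1-high. In these Ms4a1-low cells the leading class took 98.9% to 100% of heavy chain UMIs in PHZ and 95.1% to 100% in bleeding. Lambda light chains were used by 3 of 11 PHZ and 8 of 60 bleeding members. Among B cell-like cells with 10 light chain UMIs, 15.5% (13.7 to 17.5) in PHZ and 12.9% (11.8 to 14.1) in bleeding were lambda.

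**Figure D2:**
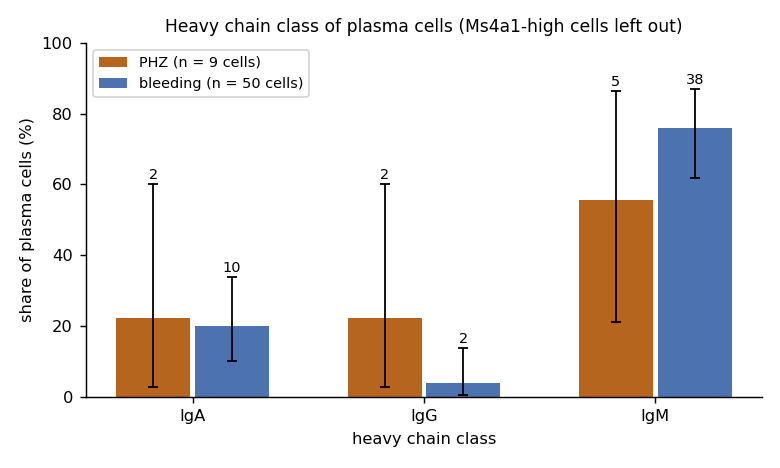
Share of plasma cells (y axis, percent) in each heavy chain class (x axis) for PHZ (9 cells, left bars) and bleeding (50 cells, right bars), Ms4a1-high cells left out; error bars are exact 95% intervals and numbers are cells. IgM was found in 5 of 9 PHZ and 38 of 50 bleeding cells, and the intervals of the libraries overlap in every class.

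The variable (V) segments, which form most of the antigen-binding surface, were diverse, with a kappa segment that recurred in the bleeding library. A segment was read where it had at least 5 UMIs and over 50% of V UMIs of its chain. All 9 PHZ cells had both chains read and carried 9 different pairs. In the bleeding library 44 of 50 cells had both read, with 30 heavy segments and 40 different pairs. Igkv5-39 was the light segment of 7 of 44 kappa cells in bleeding (15.9%, 6.64 to 30.1), and all 7 were IgM. It was found in 0 of 6 PHZ kappa cells, which allows a share of up to 50%. In bleeding B cell-like cells it led in 24 of 1418 cells (1.69%, 1.09 to 2.51) and in PHZ ones in 0.950%; there any UMI sufficed, so the definitions differ. Igkv14-126 was read in 4 of 44 bleeding kappa plasma cells (9.09%) and led in 1.13% of B cell-like cells. Igkv1-110, a common segment, was read in 4 of 44 and led in 8.67%. These segments were singled out after their values were seen. The Igkv5-39 cells carried 40 to 140 UMIs of it, which were 97.6% to 100% of their kappa V UMIs. Its V exon shares 91.6% of 298 positions with Igkv5-45 and 91.3% with Igkv5-43, so counts of near copies are uncertain.

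Pairs that recurred in bleeding were Ighv1-47 with Igkv5-39, Ighv5-4 with Igkv5-39, Ighv5-4 with Igkv14-126 and Ighv7-1 with Igkv7-33, each in 2 IgM cells. Joining segments and junctions were not read, so a shared pair does not show a shared clone. The first 300 coding bases are shown for the segments of the 3 recurring pairs that hold Igkv5-39 or Ighv5-4, so that their light and heavy chains can be told apart. They come from GENCODE M21 on GRCm38, with the leader exon in capitals and the V exon in lower case. The coding exons of Igkv5-39 lie at chr6:69900424-69900977 (minus strand), Igkv14-126 at chr6:67896177-67896642 (plus strand), Ighv5-4 at chr12:113597446-113597905 (minus strand) and Ighv1-47 at chr12:114991108-114991534 (minus strand).
Igkv5-39: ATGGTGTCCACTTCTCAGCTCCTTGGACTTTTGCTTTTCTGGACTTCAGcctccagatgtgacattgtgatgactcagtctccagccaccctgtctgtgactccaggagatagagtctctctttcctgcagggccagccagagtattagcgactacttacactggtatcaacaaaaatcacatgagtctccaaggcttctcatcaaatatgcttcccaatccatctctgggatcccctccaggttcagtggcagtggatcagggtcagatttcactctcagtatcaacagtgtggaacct
Igkv14-126: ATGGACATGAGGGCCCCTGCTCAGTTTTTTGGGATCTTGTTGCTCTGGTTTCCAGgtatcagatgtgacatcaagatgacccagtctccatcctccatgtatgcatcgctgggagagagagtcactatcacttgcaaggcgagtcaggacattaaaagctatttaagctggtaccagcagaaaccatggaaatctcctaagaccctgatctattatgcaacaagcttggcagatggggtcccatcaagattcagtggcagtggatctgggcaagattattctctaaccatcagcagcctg
Ighv5-4: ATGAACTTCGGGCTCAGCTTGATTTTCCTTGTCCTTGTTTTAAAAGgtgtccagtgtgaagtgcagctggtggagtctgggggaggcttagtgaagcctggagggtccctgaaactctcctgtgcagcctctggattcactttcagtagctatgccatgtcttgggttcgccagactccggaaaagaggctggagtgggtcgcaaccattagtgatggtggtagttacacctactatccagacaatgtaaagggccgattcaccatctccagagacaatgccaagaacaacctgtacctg
Ighv1-47: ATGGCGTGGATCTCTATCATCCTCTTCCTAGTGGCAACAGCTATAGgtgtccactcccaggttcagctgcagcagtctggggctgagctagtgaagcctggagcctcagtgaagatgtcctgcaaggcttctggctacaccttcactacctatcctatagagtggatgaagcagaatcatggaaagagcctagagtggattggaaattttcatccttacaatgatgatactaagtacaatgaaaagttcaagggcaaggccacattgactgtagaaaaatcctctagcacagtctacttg

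Against B cell-like cells of the same library, plasma cells showed higher secretory genes and lower B cell genes in both libraries. Members were chosen by expression, so these ratios describe the cells and support nothing further. Genes with a mean of at least 50 CPM were considered, and a ratio over 2 or under 0.5 was counted. In PHZ, 481 of 3638 genes (13.2%) were over 2-fold higher and 716 (19.7%) over 2-fold lower. In bleeding, 451 of 3564 genes (12.7%) were higher and 582 (16.3%) lower. Without the Ms4a1-high members, 560 (15.8%) were higher and 963 (27.2%) lower in PHZ, and 501 (14.2%) and 735 (20.9%) in bleeding. When immunoglobulin UMIs stayed in the total, the median of all genes moved to −0.94 in PHZ and −0.79 in bleeding on the log2 scale, against −0.11 and −0.15, and the split became 155 higher and 1398 lower in PHZ and 181 higher and 1210 lower in bleeding. Of 3309 genes considered in both libraries, 298 were higher in both, 75.8% of the PHZ and 74.0% of the bleeding genes.

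Genes for protein folding in the ER had the highest median of the secretory lists. Of 23 measured chaperones and folding enzymes, 21 were over 2-fold higher in PHZ plasma cells and 22 in bleeding ones, and the median log2 ratio was 3.02 in PHZ and 2.94 in bleeding. Hspa5, the main ER chaperone BiP, stood at 1371 CPM in PHZ plasma cells against 171 CPM in B cell-like cells, and at 1403 against 164 CPM in bleeding, a bleeding ratio of 8.54 (8.06 to 9.04). Hsp90b1, the ER form of the HSP90 chaperone, stood at 3304 against 263 CPM in PHZ and at 4503 against 208 CPM in bleeding, 21.7-fold. Single cells weighed on these sums: 1 bleeding cell held 28.9% of the Hspa5 and 31.7% of the Hsp90b1 UMIs of all members. Creld2, an ER protein induced by misfolding, was 54.0-fold higher in PHZ and 44.2-fold in bleeding. Sdf2l1, a BiP partner, was 30.2-fold higher in PHZ and 26.6-fold in bleeding, and Txndc5, a disulfide isomerase, 21.4-fold and 19.4-fold. Fkbp11, a prolyl isomerase of secretory cells, had a ratio of 109 (78.4 to 152) in PHZ and 27.1 (21.9 to 33.7) in bleeding. Ero1lb, an ER oxidase, was the lowest of them, at 0.822 (0.568 to 1.15) in PHZ and 0.873 (0.763 to 0.994) in bleeding, and at 1.13 and 1.07 without the Ms4a1-high members.

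Promoters of this group are printed because its members were high together. The ER stress response element, the letters CCAAT and CCACG with any 9 bases between them, was searched on both strands of the 250 bases before each start site in RefSeq promoters of GRCm38.p6. It was present for 8 of 25 matched folding genes (32%), against 35 of 27025 genes (0.13%). These 8 were Hspa5, Hsp90b1, Pdia6, Calr, Canx, Dnajc3, Creld2 and Ero1lb (Ero1b in RefSeq). It was present for 1 of 14 matched ER-associated degradation genes, Syvn1, for 1 of 25 N-glycosylation genes, Alg12, and for 0 of 18 translocon, 0 of 32 ER to Golgi and 0 of 22 B cell identity genes. Ero1lb shows that a match did not go with a high ratio in each gene. A second element, TGACGTGG, was present for 2 of 25 folding genes, Txndc5 and Txndc11, for 3 of 32 ER to Golgi genes, Sec24d, Copb1 and Kdelr3, for 2 of 14 ER-associated degradation genes, Ube2j1 and Vcp (14.3%), and for 0.603% of all genes. A match is only a description of letters. Capitals mark the first element in Hspa5 at chr2:34771840-34772089 (plus strand), Hsp90b1 at chr10:86705445-86705694 (minus strand) and Creld2 at chr15:88819396-88819645 (plus strand), and the second in Sec24d at chr3:123267246-123267495 (plus strand); Hsp90b1 holds the first element 2 times.
Hspa5: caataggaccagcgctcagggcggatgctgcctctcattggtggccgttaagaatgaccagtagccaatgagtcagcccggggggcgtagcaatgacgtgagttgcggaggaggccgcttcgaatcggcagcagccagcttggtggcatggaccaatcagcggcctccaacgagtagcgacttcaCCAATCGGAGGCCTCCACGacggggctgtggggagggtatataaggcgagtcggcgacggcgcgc
Hsp90b1: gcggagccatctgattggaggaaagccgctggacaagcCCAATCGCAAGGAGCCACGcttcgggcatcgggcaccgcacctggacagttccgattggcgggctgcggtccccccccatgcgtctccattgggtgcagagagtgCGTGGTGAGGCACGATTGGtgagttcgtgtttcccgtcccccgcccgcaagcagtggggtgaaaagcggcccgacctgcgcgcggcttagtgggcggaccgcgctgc
Creld2: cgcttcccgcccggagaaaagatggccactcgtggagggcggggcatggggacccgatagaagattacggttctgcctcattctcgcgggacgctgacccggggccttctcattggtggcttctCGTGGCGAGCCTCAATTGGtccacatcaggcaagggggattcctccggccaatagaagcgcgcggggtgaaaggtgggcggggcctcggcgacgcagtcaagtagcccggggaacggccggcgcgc
Sec24d: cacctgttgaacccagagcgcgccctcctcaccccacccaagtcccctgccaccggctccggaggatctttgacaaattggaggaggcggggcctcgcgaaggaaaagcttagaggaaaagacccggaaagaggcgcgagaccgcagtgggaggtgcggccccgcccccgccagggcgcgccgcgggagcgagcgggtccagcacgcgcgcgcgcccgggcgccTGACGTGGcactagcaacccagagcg

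Further steps of secretion were higher as well. Of 22 genes measured in PHZ and 21 in bleeding for entry into the ER (translocon, signal recognition particle, signal peptidase), 18 were over 2-fold higher in each library, with medians of 2.23 and 2.02. Ssr4, a subunit of the translocon-associated complex, was 19.6-fold higher in PHZ and 12.9-fold in bleeding, and Sec11c, a signal peptidase subunit, 10.9-fold and 10.2-fold. For N-glycosylation 12 of 16 genes were over 2-fold higher in each library, among them Rpn1 of the oligosaccharyltransferase at 9.53-fold in PHZ and 8.48-fold in bleeding. Of the genes for ER-associated degradation, which removes misfolded chains, 14 of 18 were over 2-fold higher in PHZ and 12 of 17 in bleeding, among them Edem1, which takes misfolded glycoproteins to degradation, at 15.6-fold and 12.6-fold. Of the transport genes between ER and Golgi, 21 of 32 were over 2-fold higher in PHZ and 21 of 29 in bleeding. Sec24d, a COPII coat subunit for cargo, was 38.6-fold higher in PHZ and 33.0-fold in bleeding. Lman1, a cargo receptor, was 11.4-fold higher in PHZ and 12.6-fold in bleeding.

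The stress sensors of the ER did not move alike. Ern1, which encodes the IRE1 sensor that splices Xbp1, was 6.76-fold higher in PHZ and 13.4-fold (11.2 to 15.9) in bleeding. Atf6, the sensor that acts as a transcription factor, was at 1.80 in PHZ and 2.06 in bleeding. Eif2ak3, the PERK sensor that slows translation, was at 0.663 in PHZ and 0.834 (0.698 to 0.990) in bleeding. Creb3l2, an ER-bound transcription factor, was 14.1-fold higher in PHZ and 36.4-fold in bleeding.

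Of the transcription and mRNA factors of plasma cells, Irf4, which drives their formation, was 4.10-fold higher in PHZ and 4.37-fold in bleeding. Ell2 and Eaf2, partners in transcription elongation, were 5.69-fold and 14.5-fold higher in PHZ and 8.96-fold and 19.1-fold in bleeding. Tent5c, a poly(A) polymerase that stabilises secretory transcripts, was 26.2-fold higher in PHZ and 41.3-fold in bleeding. The size of its ratio depended on the processing. Over the alternatives run, its log2 ratio ranged over 1.30 to 7.22 in PHZ and 1.56 to 7.68 in bleeding. The lineage factors Ikzf1 and Ikzf3 were lower, at 0.445 and 0.281 in PHZ and 0.514 and 0.332 in bleeding. Zbtb20, a transcriptional repressor among these plasma cell factors, was at 1.25 in PHZ and 0.840 in bleeding.

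Prg2, which encodes the eosinophil major basic protein, had the highest bleeding ratio of the 20 genes ranked highest. It stood at 561 CPM in PHZ plasma cells, in 9 of 11 cells, against 0.0933 CPM, 1 UMI, in B cell-like cells. In bleeding it stood at 346 CPM, in 41 of 60 cells, against 0.171 CPM, a ratio of 2027 (786 to 7472). A Prg2 UMI was found in 0.119% of B cell-like and 0.0518% of T cell-like bleeding cells, whose median depths outside haemoglobin and immunoglobulin genes were 5668 and 7858 UMIs, against 15290 UMIs in members. The 12 Ms4a1-high members had 0 Prg2 UMIs, the other 9 PHZ members 1 to 39 (median 7) and the other 50 bleeding members 0 to 55 (median 5). The 10 neutrophil markers, of a related granulocyte, summed to 184 CPM in PHZ members against 994 CPM in B cell-like cells, and to 59.97 against 1088 CPM in bleeding. The highest B cell-like cells held 351052 CPM of these markers in PHZ and 314598 CPM in bleeding. Their per-cell medians were 131 CPM in PHZ members against 141 CPM in B cell-like cells, and 49.9 against 0 CPM in bleeding. At least 1 UMI of these markers was held by 35 of 60 members against 959 of 3358 B cell-like cells in bleeding. These shares compare cells of unlike depth, as given above, and the part of these markers in the Prg2 level was not tested. Ccr10, the receptor that guides cells to mucosal epithelium, was 309-fold higher in PHZ (88.3 to 1653) and 576-fold in bleeding (191 to 2844). Slpi, a secreted protease inhibitor, was 245-fold higher in PHZ and 149-fold in bleeding. Cd28, the costimulatory receptor of T cells that long-lived plasma cells also carry, was 260-fold higher in PHZ (53.9 to 2477) and 192-fold in bleeding (96.8 to 433). A Cd28 UMI was found in 34 of 60 bleeding members, or 56.7%, against 0.268% of B cell-like and 63.9% of T cell-like cells. The 12 T cell markers summed to 37.8 CPM in PHZ members against 17.4 CPM in B cell-like cells, whose gate bars CD3 UMIs, and to 166 against 33.6 CPM in bleeding. In PHZ members 9 of the 12 were at 0, Cd3e, Trac and Trbc2 among them, and in bleeding members 0 were. Their part in the Cd28 level was not tested. Prlr, the prolactin receptor, was 122-fold higher in PHZ and 126-fold in bleeding. Chst1, a sulfotransferase of glycans, had 39 UMIs in PHZ plasma cells and 0 in B cell-like cells, and was 111-fold higher in bleeding. Selenom, an ER selenoprotein, was 33.5-fold higher in PHZ and 103-fold in bleeding. Nrg2, Pls1, Tmem176a, Ly6c2, Ankrd55, Trf, Rhobtb1, Oosp1, Nacc2 and Gm5547 completed the 20 genes that led the bleeding list, with bleeding ratios of 35.3 to 76.6. All 20 had higher ratios in both libraries without the Ms4a1-high members.

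Of the surface and survival receptors, 6 of 12 were over 2-fold higher in PHZ and 6 of 14 in bleeding. Slamf7, a surface receptor of plasma cells, was 7.09-fold higher in PHZ and 6.59-fold in bleeding, and the hyaluronan receptor Cd44 2.24-fold and 2.96-fold. Cd38, an ectoenzyme of mouse B cells, was at 0.206 in PHZ and 0.123 in bleeding, and at 0.0844 and 0.0662 without the Ms4a1-high members.

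B cell identity was lower in plasma cells. Of 30 genes, 24 in PHZ and 25 in bleeding were over 2-fold lower, and the median log2 ratio was −1.85 in PHZ and −2.12 in bleeding. Without the Ms4a1-high members it was −2.64 in PHZ and −3.58 in bleeding. Pax5, the factor that holds B cell identity, was at 0.223 in PHZ and 0.163 in bleeding, and at 0.0744 and 0.0306 without the Ms4a1-high members. Ebf1, its partner, was at 0.173 in PHZ and 0.103 in bleeding. Among the 12 genes ranked lowest were Cr2, the complement receptor CD21 (0.0649 in PHZ, 0.0370 in bleeding), Bank1, a scaffold of B cell receptor signalling (0.0606 and 0.0537), and Fcer2a, the low-affinity IgE receptor CD23 (0.0442, 0.00912 to 0.129, in PHZ on 3 UMIs, and 0.0674 in bleeding). B3gnt5, Cd55, Gm31243, Rasgef1b, Gm15675, Zfp318, Serpinb1a and Ms4a4c were also among them, at 0.0215 to 0.0640 in bleeding. Cd52, on the same list, was higher in PHZ, at 2.80, and at 1.02 in bleeding. MHC class II genes, which present antigen to T cells, were over 2-fold lower in 6 of 10 cases in PHZ and 9 of 10 in bleeding. Their activator Ciita was at 0.308 in PHZ and 0.199 in bleeding, and at 0.116 and 0.0249 without the Ms4a1-high members.

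Homing genes split. Klf2 and its target S1pr1, which let lymphocytes leave tissue, were lower in both libraries. Klf2 was at 0.0263 (0.00319 to 0.0952) in PHZ and 0.114 in bleeding, and S1pr1 had 0 UMIs in PHZ, which with a floor of 3 counts bounds its ratio at 0.115, and was at 0.149 in bleeding. Cxcr5, the follicle homing receptor, was at 0.196 in PHZ and 0.0818 in bleeding. Of the 11 genes measured in each library, 6 were over 2-fold lower and 1 over 2-fold higher, Itgb2 in PHZ and Selplg in bleeding. Ccr10, over 2-fold higher in both libraries as given above, was not among these 11 because its mean was under 50 CPM. Without the Ms4a1-high members 3 of 11 were over 2-fold higher in each library, Cxcr4, Ccr10 and Itgal in PHZ and Ccr10, Selplg and Itgal in bleeding. Amino acid genes were higher, 10 of 14 over 2-fold in PHZ and 8 of 11 in bleeding, such as the transporter chain Slc3a2 at 5.13-fold and 5.74-fold. Proteasome genes had medians of 0.70 in PHZ and 0.72 in bleeding, and oxidative phosphorylation genes of 0.69 and 0.75; with immunoglobulin UMIs in the total, both turned to −0.03 and −0.04 in PHZ and stayed above 0 in bleeding. Cytosolic ribosomal protein genes stood at −0.13 in PHZ and −0.045 in bleeding, near the median of all genes.

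**Figure D3:**
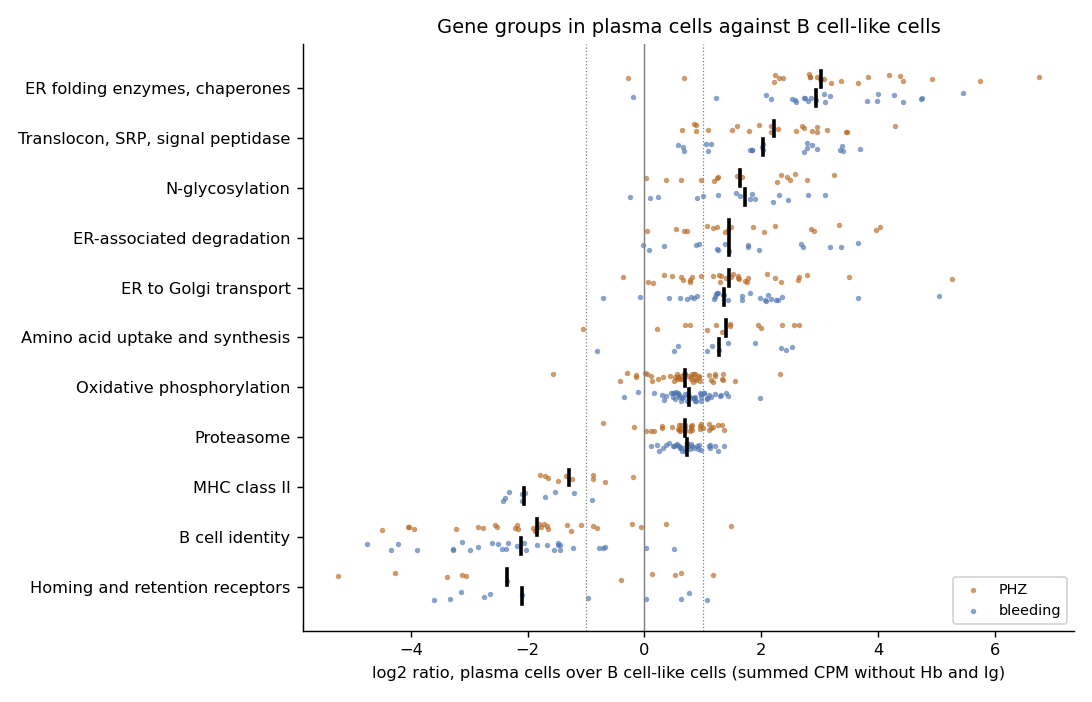
Log2 ratio of summed CPM in plasma cells over B cell-like cells (x axis) for the measured genes of 11 groups (y axis), PHZ above bleeding in each group; points are genes, black bars medians and dotted lines a 2-fold difference. The folding group lies furthest right (medians 3.02 in PHZ and 2.94 in bleeding), and the B cell, MHC class II and homing groups have medians below 0.

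Cell cycle genes followed the Ms4a1-high members and a few others. For G2 and M phase the median log2 ratio over B cell-like cells was 0.85 in PHZ and 1.61 in bleeding, and −1.0 and 0.82 without the Ms4a1-high members, so its direction in PHZ rested on 2 cells. Of the Ms4a1-low members, 0 of 9 in PHZ, which allows a share of up to 33.3%, and 5 of 50 in bleeding held 10 or more Mki67 UMIs. These 5 were 4 IgM cells and 1 IgA cell, with immunoglobulin shares of 4.86% to 37.6% and depths of 24534 to 119716 UMIs.

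PHZ and bleeding plasma cells had similar levels of most genes. Of 3377 genes considered, 104 (3.08%) were over 2-fold higher in PHZ and 116 (3.44%) over 2-fold lower, and 134 (4.27%) and 176 (5.61%) of 3140 without the Ms4a1-high members. With immunoglobulin UMIs in the total, 16 were higher and 77 lower, and the median of all genes was −0.13 on the log2 scale. The median log2 ratio of the folding group was 0.17 beside 0.05 for all genes, with 1 of 24 genes past 2-fold. That gene was Fkbp11, at 589 CPM in PHZ and 170 CPM in bleeding, a ratio of 3.46 (2.72 to 4.38). It was seen in 7 of 11 PHZ cells, of which 1 held 42.2% of the UMIs, and in 38 of 60 bleeding cells. In B cell-like cells its ratio was 0.862. Cd52, a small surface glycoprotein, stood at 4945 CPM in PHZ and 1796 CPM in bleeding, 2.75-fold higher (2.55 to 2.98) and 4.38-fold without the Ms4a1-high members, with a ratio of 0.998 in B cell-like cells. It was seen in 11 of 11 PHZ cells, of which 1 held 34.7% of the UMIs, and in 58 of 60 bleeding cells. Slpi stood at 2262 CPM in PHZ and 979 CPM in bleeding, but 1 PHZ cell held 76.4% of its UMIs. Cped1 was 6.08-fold higher with 76.2% of UMIs in 1 PHZ cell, and it turned to −0.56 on the log2 scale without the 3 deepest cells of each library. Tesk1, Ly75, Ksr1 and Pex3, the other higher genes, had 13 to 18 UMIs in PHZ, and 3, 10, 2 and 10 without the Ms4a1-high members. The intervals of Tesk1 (2.60, 0.444 to 10.8) and Ksr1 (2.77, 0.264 to 16.9) then covered 1. Single PHZ cells held 53.85% of all Tesk1 and 71.4% of all Ksr1 UMIs. Tesk1, Ksr1 and Pex3 had means under 50 CPM, so the counts past 2-fold leave them out.

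Plac8, a cysteine-rich protein of immune cells, ranked first among the genes lower in PHZ. It had 2 UMIs in 1 of 11 PHZ cells and 398 UMIs in 31 of 60 bleeding cells, a ratio of 0.0335 (0.00404 to 0.122), and 0.0610 without the Ms4a1-high members. In B cell-like cells its ratio was 0.676. Ifi27l2a, an interferon-induced gene, stood at 86.4 CPM in PHZ and 367 CPM in bleeding, a ratio of 0.235 (0.133 to 0.386), against 1.07 in B cell-like cells. Isg15, an interferon-induced ubiquitin-like protein, had 1 UMI in PHZ and 103 in bleeding, of which 64.1% lay in 1 cell. The whole interferon list had a median log2 ratio of −0.16 over 6 genes, with 1 over 2-fold lower, and of 0.08 over 7 genes, with 2 over 2-fold lower, without the Ms4a1-high members. Isg15, like Gm2682, Skap1, Arl5c and BE692007, had a mean under 50 CPM, so the counts past 2-fold leave these genes out. Gm2682, Skap1 and Arl5c had 0 UMIs in PHZ and 118, 117 and 85 in bleeding. These bleeding UMIs lay in only 8, 8 and 28 of 60 cells, with 33.9%, 27.35% and 32.94% of them in 1 cell. BE692007 had 1 UMI in PHZ and 114 in bleeding, a ratio of 0.0584 (0.00147 to 0.332), and 0 and 79 UMIs without the Ms4a1-high members. Gm43305 was at 0.260, and at 0.0873 without them, with 60% of its PHZ and 49.7% of its bleeding UMIs in 1 cell each. Over the alternatives run its log2 ratio ranged over −3.52 to −0.49. For G2 and M phase the median log2 ratio was −0.18 with 4 of 30 genes over 2-fold lower, and −1.49 with 8 of 12 without the Ms4a1-high members. These ratios come from sums, on which single bleeding cells weighed. Per Ms4a1-low cell, the list had a median of 922 CPM in PHZ (480 to 1668) and 868 CPM in bleeding (0 to 24487).

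IgA cells differed from IgM cells in receptors and in some secretory products. This comparison was added after the data were seen and leaves out the Ms4a1-high members. In bleeding it set 10 IgA against 38 IgM cells, and 181 of 3171 genes (5.71%) were over 2-fold higher and 218 (6.87%) over 2-fold lower in IgA cells. When every cell was given equal weight, 297 were higher and 214 lower. The PHZ library, with 2 IgA and 5 IgM cells, was not used to rank the genes. Ccr10 was present in 9 of 10 IgA cells (0 to 14 UMIs, median 5) and 9 of 38 IgM cells (0 to 4 UMIs, median 0) of the bleeding library. It stood at 419 CPM in IgA and 29.7 CPM in IgM cells, 14.1-fold (8.42 to 24.6). In PHZ it stood at 448 CPM in IgA and 40.3 CPM in IgM cells. There the 2 IgA cells held 12 and 1 UMIs and the IgM cells 0 to 2. The IgA and IgM ranges overlapped at the low end in both libraries. Runx2, a Runt family transcription factor, was found in 10 of 10 IgA and 7 of 38 IgM cells, 18.9-fold (11.2 to 33.6), and had 7 UMIs in IgA and 2 in IgM cells of PHZ. Osbpl3, an oxysterol-binding protein, had 24 UMIs in 8 IgA cells and 1 UMI in 38 IgM cells of bleeding, and 5 UMIs in IgA and 1 in IgM cells of PHZ. St6galnac3, a sialyltransferase, was 11.0-fold higher and Glipr1 4.15-fold.

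Among the homing genes, 4 of 9 measured were over 2-fold higher in IgA cells. Besides Ccr10 these were Ccr9, the gut homing receptor (9.41-fold, 21 UMIs in 5 of 10 IgA cells against 10 UMIs in 5 of 38 IgM cells), Itgb7, the integrin chain that binds gut vessels (6.998-fold, 9 of 10 against 7 of 38 cells), and Klf2 (11.0-fold). In each of these 3, 1 IgA cell held over 50% of the IgA UMIs. In PHZ, Ccr9 had 0 UMIs in IgA cells and 1 in IgM cells, and Itgb7 had 1 in each. Cxcr4, the receptor for bone marrow retention, had 0 UMIs in IgA cells and 39 UMIs in 22 of 38 IgM cells of bleeding. Nr6a1, Nuggc, Rasgrp2, Eml6, Emp3, Sipa1l1 and Itpr1 completed the 12 higher genes, at 3.24-fold to 7.47-fold.

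Chst1 and Prg2 were lower in IgA cells of the bleeding library. Chst1 had 0 UMIs in 10 IgA cells and 111 UMIs in 25 of 38 IgM cells, but 6 UMIs in 1 of 2 IgA cells of PHZ. Prg2 ranged over 0 to 7 UMIs in IgA cells (median 0.5) and 0 to 55 in IgM cells (median 6), a ratio of 0.225 (0.136 to 0.352) from sums, and of 0.714 in PHZ. Ly6c2, a surface protein of the Ly6 family, was at 0.220 (0.140 to 0.331) in bleeding and had 1 UMI in IgA and 31 in IgM cells of PHZ. Ctss, the lysosomal protease cathepsin S, was at 0.243 in bleeding and 0.153 in PHZ. H2-Q6, Bank1, Maml3, Selenop, Immp2l, Fam169b, Aff3 and Ggh completed the 12 lower genes. Selenop and Ggh had means under 50 CPM, so the counts past 2-fold leave them out. The secretory lists were level, with a median of −0.08 for folding genes beside 0.01 for all genes, and 1 of 24 past 2-fold. In the interferon list 5 of 9 genes were over 2-fold lower and 1 higher in IgA cells, and in the G2 and M phase list 6 of 14 were lower. Single cells weighed on the G2 and M phase sums. The bleeding IgM cells with most UMIs of that list held 1206, 524 and 463, and no other IgM cell there held over 35. The highest IgA cell held 204. Of the named genes with a PHZ ratio, 9 of 10 higher and 9 of 11 lower ones had the same direction there. Of the lower ones, Bank1, Maml3, Aff3 and Ggh had 0 UMIs in PHZ IgA cells. The floor gives such genes a lower ratio or none, so they could not disagree. Nr6a1 and Nuggc of the higher genes had no PHZ ratio, with 0 and 1 UMIs in IgA and 5 and 3 in IgM cells. H2-Q6 of the lower genes had none either, with 0 and 3 UMIs. Over all genes past 2-fold in bleeding and considered in PHZ, 61.0% of 82 higher and 60.2% of 161 lower ones had the same direction, under the same floor.

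**Figure D4:**
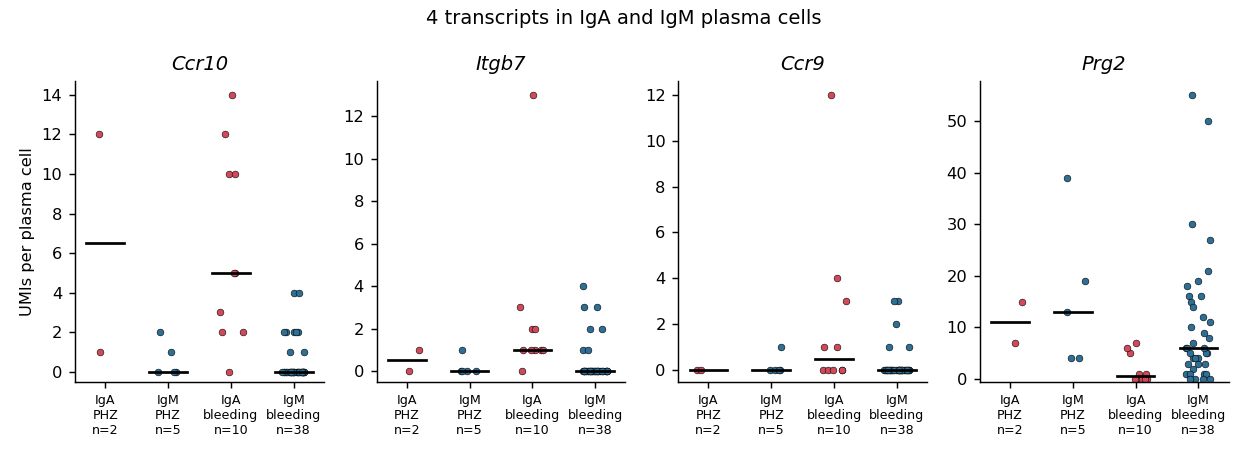
UMIs per plasma cell (y axis) of Ccr10, Itgb7, Ccr9 and Prg2 in IgA and IgM cells of the PHZ and bleeding libraries (x axis); points are cells, black bars medians, Ms4a1-high cells left out. Ccr10 had a median of 5 UMIs in the 10 IgA and 0 in the 38 IgM cells of bleeding, while Prg2 had medians of 0.5 and 6.

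Summed markers of other cells differed between IgA and IgM cells in bleeding, and single cells weighed on the erythroid and T cell sums. The 10 erythroid markers summed to 652 CPM in IgA and 135 CPM in IgM cells. Their per-cell medians were 157 and 119 CPM, and the highest cells held 3353 CPM in IgA and 1324 CPM in IgM. Haemoglobin UMIs made up 17.4% in 1 IgA cell. The 12 T cell markers summed to 319 CPM in IgA and 77.2 CPM in IgM cells. Their per-cell medians were 64.4 and 0 CPM, and the highest cells held 1676 and 1019 CPM. The 7 NK cell markers summed to 86.4 CPM, with a UMI in 7 of 10 IgA cells, and to 7.42 CPM, with a UMI in 4 of 38 IgM cells, and were at 0 in both classes in PHZ. The 10 neutrophil markers summed to 140 CPM in IgA and 63.8 CPM in IgM cells. The macrophage and monocyte list was lower, at 193 CPM in IgA and 744 CPM in IgM cells. In PHZ the erythroid sums were 379 CPM in IgA and 242 CPM in IgM cells. The T cell sums there were 103 and 13.4 CPM, each from 1 cell. Without the cells of 5% or more haemoglobin, Ccr10 and Runx2 were at 3.93 and 4.36 on the log2 scale. The part of these markers in the other differences was not tested. Runx2 and Ccr9 also stand on the list of plasmacytoid dendritic cell markers, which summed to 1715 CPM in IgA and 836 CPM in IgM cells of bleeding. Its defining Siglech and Klk1 were at 0 in all 71 members. The macrophage and monocyte list was higher in members than in B cell-like cells (815 against 137 CPM in PHZ, 477 against 144 CPM in bleeding) through Ly6c2, while C1qa, C1qc, Adgre1, Cd5l and Vsig4 were at 0 in members of both libraries.

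The libraries differed in depth. The matrices held 128130213 UMIs in PHZ and 145260780 in bleeding, and the median cell 12523 and 8545 UMIs. Plasma cells were deeper, with medians of 30549 UMIs in PHZ and 29168 in bleeding. Outside haemoglobin and immunoglobulin genes the members summed to 185226 UMIs in PHZ and 1233939 in bleeding, so PHZ ratios carry wider intervals. Thinned to 1500 such UMIs, plasma cells showed a median of 833 genes in PHZ and 841.5 in bleeding, and B cell-like cells 927 and 912; unthinned, members had medians of 3755 and 3670 genes and B cell-like cells 2386 and 2318. Background barcodes held 0.291% immunoglobulin UMIs in PHZ and 0.968% in bleeding.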

How the data were processed

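Spleen cells were captured with 10x Genomics 3′ v3.1 chemistry, per the labels' protocols. The authors deposited whole UMI counts per gene and barcode, unnormalised, for all barcodes. Per the submitters' processing notes Cell Ranger 7.0.0 and build mm10 were used, while the matrix header names version 4; the handling of intronic reads is not given in the sources used here. The members, gene lists and named-gene rules were chosen with earlier results of these data known.

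Counts of members and of B cell-like cells were summed per library and divided by their total without 10 haemoglobin and 392 immunoglobulin genes. Ratios carry exact conditional 95% intervals; a group at 0 was set to a floor of 3 counts over the group. The 13 genes of the rule and gates were left out of comparisons. Named genes over B cell-like cells had at least 50 UMIs and a UMI in 25% of the cells of the higher group, ranked in bleeding by the interval bound nearest 1, with 20 higher and 12 lower; those between PHZ and bleeding had 20 UMIs, 3 cells and a bound beyond 1.5, with 8 a direction; those between IgA and IgM had 20 UMIs, 30% of cells, a bound beyond 2 and no cell with 50% of UMIs in the higher group, with 12 a direction. From each list the rule took the 4 members with most UMIs in the higher group and any with a bound beyond 2-fold; the text names a choice of these by role, and some others picked after their values were seen. Scrublet in scanpy 1.11.5 marked 332 PHZ and 754 bleeding barcodes, which were kept. Ratios were checked on simulated data. numpy 2.4.6 and scipy 1.17.1 were used. Alternatives were other limits on cells, Jchain, CPM and denominators. Some genes that the rules or lists take are not reported here.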

Additional observations from a re-analysis of the deposited data

Results flagged for a closer look

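With 1 library a treatment, differences between libraries were not tested. Of 3309 genes considered in both, 16 had plasma over B cell-like ratios on opposite sides of 1 with both counting intervals off 1, and 4 of these were on a list or named. Ifi27l2a was at 0.284 in PHZ and 1.29 in bleeding. Atad2, a replication-linked ATPase, was at 0.384 in PHZ, on 6 UMIs, and 1.33 in bleeding. Pola1, a DNA polymerase subunit, was at 0.512 in PHZ, on 9 UMIs, and 1.92 in bleeding. Zbtb20 was at 1.25 in PHZ and 0.840 in bleeding.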

How the results depend on the processing

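No paired analysis was possible because each treatment had 1 library, so no replicate could be left out either. The alternatives without Ms4a1-high or haemoglobin-rich members were chosen after seeing the data. The share of plasma cells in PHZ over bleeding stayed below 1 under every alternative run (0.202 to 0.413), and class shares and the median immunoglobulin share moved by less than their intervals. Counts of genes past 2-fold followed the minimum level. With a mean of 20 CPM, plasma cells over B cell-like cells gave 919 higher and 1352 lower genes in PHZ and 826 and 951 in bleeding; with 100 CPM, 272 and 391 in PHZ and 239 and 325 in bleeding. With immunoglobulin UMIs in the total, they gave 155 and 1398 in PHZ and 181 and 1210 in bleeding. PHZ over bleeding members gave 403 higher and 439 lower at 20 CPM, 27 and 27 at 100 CPM, 16 and 77 with immunoglobulin UMIs in the total, 279 lower at a Jchain minimum of 20 and 176 lower without Ms4a1-high members. IgA over IgM gave 505 and 757 at 20 CPM, 68 and 61 at 100 CPM, 63 and 102 with immunoglobulin UMIs, and 297 higher with each cell scaled alike. The folding median was 2.28 in PHZ and 2.42 in bleeding with immunoglobulin UMIs; the B cell median was −2.61 and −2.76 there, −2.63 in PHZ at a Jchain minimum of 20, and −2.64 and −3.58 without Ms4a1-high members. Values crossed 0 in 25 cases. In 9 the direction had been clear. In PHZ over B cell-like cells these were the proteasome (−0.028), oxidative phosphorylation (−0.043) and G2 and M phase (−0.00447) medians with immunoglobulin UMIs, and G2 and M phase at a Jchain minimum of 20 (−1.03) and without Ms4a1-high members (−1.0). In PHZ over bleeding they were the all-gene median with immunoglobulin UMIs (−0.13) and at a Jchain minimum of 20 (−0.016), Ksr1 at that minimum (−0.20) and Cped1 without the 3 deepest members (−0.56). The cause was not tested. The other 16 crossings concern 7 list medians over B cell-like cells whose spread over genes covers 0. With immunoglobulin UMIs these were, in PHZ, transcription factors (−0.31), surface receptors (−0.012), survival (−0.91) and S phase (−0.56), and in bleeding transcription factors (−0.14) and autophagy (−0.12). PHZ survival also turned under 5 further alternatives (−0.10 to −0.34), and PHZ S phase at a Jchain minimum of 20 (−0.40), without the 3 deepest (−0.26) and without Ms4a1-high members (−0.38). The bleeding interferon median turned with doublets removed (0.020) and without Ms4a1-high members (0.64). Of the rest, 205 values moved in size and 1804 stayed within their error or 1.5 times their count, with the same direction. The 11 PHZ cells limit precision: a gene at 50 CPM gives few UMIs there.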
